A study of Mus musculus with 16 samples.

Results

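The comparison described here set cultured mouse cardiac fibroblasts that received an adenovirus carrying Cre recombinase against the same preparations of cells given an adenovirus carrying green fluorescent protein (GFP), both in medium with transforming growth factor beta (TGF-beta). Its members were the 4 libraries of the group Cre with TGF-beta and the 4 libraries of the group GFP with TGF-beta, 8 of the 16 libraries of the series, paired by replicate number. The other 8 libraries are the same virus groups without TGF-beta. All cells were heart fibroblasts at passage 2, starved of serum for 24 h, given virus for 5 h and stimulated for 48 h, with growth factor at 20 ng/mL. The labels' treatment protocol gives the cells as Has2 fl/fl, in which Cre is meant to delete exon 2 of Has2, whereas their genotype field reads Wild Type C57BL/6J for every library, control and Cre alike, and the age of the mice is not given. Preparations 1 and 4 were labelled male and preparations 2 and 3 female. Basic fibroblast growth factor and TGF-beta are named in 1 phrase of the protocol, so whether either medium held both is not stated. Virus was added to whole cultures, and no selection of cells that took it up is described.

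Hyaluronan is a large, unsulfated sugar polymer of the extracellular matrix. Hyaluronan synthases (Has1, Has2 and Has3) make it at the cell membrane, hyaluronidases and Cemip degrade it, and receptors such as Cd44 bind it. Cardiac fibroblasts build most of the matrix of the heart, and TGF-beta drives them toward a myofibroblast state with contractile fibres and abundant collagen. Cells also sense viruses and foreign nucleic acid, and answer through interferon with antiviral effectors, guanylate-binding proteins and antigen presentation.

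Library totals ran from 18.1 to 40.9 M counts in the GFP group (26.0 ± 10.5, SD, n = 4) and from 23.4 to 32.3 M in the Cre group (27.5 ± 3.72, SD, n = 4). Of 55414 genes in the table, 15285 had enough counts to be tested, and they held 99.94% of all counts. Levels are given in CPM, counts scaled to library size with trimmed-mean factors, which compare 1 gene between libraries and not different genes with each other. Differences are fitted log2 differences, Cre minus GFP within preparations, with their standard error (SE), and adjusted p-values come from edgeR's quasi-likelihood test with Benjamini-Hochberg adjustment over all genes tested. The p-values rest on the spread left in 1 fit of all 16 libraries, with a preparation effect shared by both media. That spread takes in how the preparations differ between media, so it is not the spread of the 4 pairs alone. It covers only these 4 preparations. In such bulk samples fewer cells of a type cannot be told apart from less RNA per cell. Fibroblast identity genes such as Col1a1 and Pdgfra were detected in every library, with 22 of 26 at or above 1 CPM on average. Of 20 cardiomyocyte markers 17 lay below 1 CPM, and Actc1, Myh6, Myl7, Nppa, Pln and Ttn had no count in any of the 8 libraries. Macrophage and leukocyte markers were present as well, with only 3 of 20 below 1 CPM on average.

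Has2, the gene targeted by the design, had similar levels in both groups. It measured 15.3, 9.47, 21.9 and 20.7 CPM in GFP preparations 1 to 4 and 12.5, 11, 25 and 17.4 CPM in the Cre libraries of the same preparations. The Cre library was the lower in preparations 1 and 4 and the higher in preparations 2 and 3. The fitted log2 difference was -0.04 ± 0.15 (SE, n = 4 pairs, edgeR adjusted p = 0.949), with a 95% interval from -0.36 to 0.29. The sign of this value changed in 5 of the fits that left out 1 library or preparation, which ranged from -0.17 to 0.09. These are counts of the whole gene, which take in reads of every exon, so they do not check the loss of exon 2 alone. Without TGF-beta the Cre library was the lower in 4 of 4 preparations (-0.32 ± 0.15, adjusted p = 0.827). The difference between both media was 0.29 ± 0.22 (SE, adjusted p = 1.00).

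Across all genes, the Cre cells differed from the GFP cells by a small set of transcripts that rose, and none that fell past the threshold. At an adjusted p under 0.05, 10 genes were higher (0.0654% of those tested) and 0 lower (0%). At an unadjusted p under 0.05 there were 1061 genes higher (6.94%) and 978 lower (6.4%). Of the 15285 genes tested, DESeq2 called 194 higher and 35 lower at an adjusted p under 0.05. The genes that rose were Malat1, Esf1, Luc7l3, Dnajc2, Mphosph8, Ppig, Gbp7, Hsp90aa1, Sltm and Cir1, by 1.43 to 2.23 fold. Each was higher with Cre in 4 of 4 preparations, which held for 1543 of all genes tested (10.1%). The count of calls rests on which preparations enter the fit: 0 genes were called without preparation 1 or without preparation 2, 3 without preparation 3 and 232 without preparation 4. Leaving out single libraries gave 1 or 2 calls without any 1 GFP library or without Cre preparation 2 or 3, 30 without Cre preparation 1 and 320 without Cre preparation 4. Without the preparation as a block the count was 0, against 268 genes at an unadjusted p under 0.05 (1.75%). When each medium was given its own preparation effect, 308 genes were called higher (2.02%) and 94 lower (0.615%), among them all 10 named here.

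**Figure D1:**
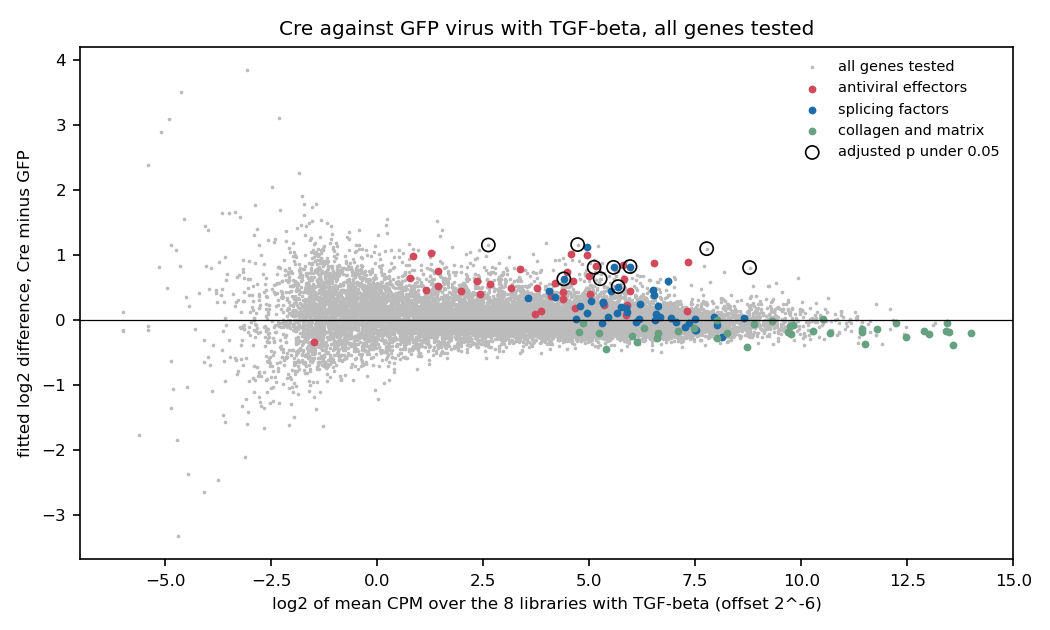
Fitted log2 difference (Cre minus GFP, with TGF-beta) against mean expression on a log2 scale, 1 point per gene tested. Circles mark the 10 genes past the threshold, all above 0, at middle to high expression. Antiviral effectors lie mostly above 0 and collagen and matrix genes mostly below it.

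Malat1, a long noncoding RNA held in nuclear speckles, had the lowest adjusted p. It measured 115, 104, 56.9 and 254 CPM in GFP preparations 1 to 4 and 240, 253, 96.5 and 624 CPM in the Cre libraries. Every Cre library stood above its own partner, but the groups overlapped, because preparation 3 was low and preparation 4 high in both. The log2 difference was 1.10 ± 0.12 (SE, adjusted p = 0.00267), and within the 4 preparations it was 1.06, 1.28, 0.76 and 1.30. Malat1 was also the single gene called in a test against a change of 1.2 fold (adjusted p = 0.0124). Of the 12 nuclear long noncoding RNAs and paraspeckle genes tested, 1 was called, 7 were higher in 4 of 4 preparations and the median difference was 0.39, beside -0.0049 over all genes. Meg3, an imprinted long noncoding RNA, gave 0.76 ± 0.16 and Gas5, a host of small nucleolar RNAs, 0.46 ± 0.11, neither past the threshold (adjusted p = 0.0972 and 0.122). Kcnq1ot1, an imprinted transcript antisense to Kcnq1, gave 1.39 ± 0.28 (adjusted p = 0.0837), with 13.5 CPM in Cre preparation 4 against 0.909 to 1.69 CPM in the other Cre libraries. Neat1, the scaffold of paraspeckles, gave 0.24 ± 0.14 (adjusted p = 0.482).

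Of 42 genes tested on the list of messenger RNA splicing and related genes, 4 were called higher, beside 0.0654% of all genes tested. Luc7l3, a U1-associated splicing factor, measured 27.3, 20.4, 26.7 and 63.9 CPM with GFP and 40.4, 41.0, 45.8 and 114 CPM with Cre in preparations 1 to 4. Preparation 4 was the highest of both groups, and the pairs differed by 0.56, 1.01, 0.78 and 0.84 on the log2 scale. The fitted difference was 0.81 ± 0.12 (SE, adjusted p = 0.0274). Ppig, a nuclear cyclophilin with a domain rich in serine and arginine, measured 38.9, 26.5, 32.0 and 79.9 CPM with GFP against 56.3, 45.5, 61.5 and 158 CPM with Cre (0.82 ± 0.13, adjusted p = 0.0401). Cir1, a corepressor that binds RBPJ and also splicing proteins, was the single called gene whose groups did not overlap. Its GFP libraries held 17.7, 14.8, 14.2 and 19.3 CPM and its Cre libraries 23.7, 25.6, 20.1 and 33.1 CPM (0.63 ± 0.11, adjusted p = 0.0469). Groups that did not overlap were seen for 126 genes in the higher direction (0.824%) and 115 in the lower (0.752%). Sltm, a relative of the nuclear scaffold protein SAFB, measured 36.1, 26.5, 35.7 and 70.8 CPM with GFP and 41.1, 41.3, 57.0 and 101 CPM with Cre (0.51 ± 0.09, adjusted p = 0.0469). Its pair in preparation 1 was the closest, with a log2 difference of 0.19. Rbm39, a splicing factor, missed the threshold narrowly (0.46 ± 0.08, adjusted p = 0.0543). Of 42 splicing genes tested, 33 lay above 0, 20 were higher and 1 lower in 4 of 4 preparations (47.6% and 2.38%, against 10.1% and 14.1% of all genes), and the median was 0.12.

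Esf1, a nucleolar factor of ribosomal RNA processing, showed the largest fitted difference among the called genes. It measured 12.8, 8.99, 11.6 and 34.2 CPM with GFP and 25.2, 23.3, 26.8 and 68.5 CPM with Cre. All 4 pairs were close to a doubling or above, with log2 differences of 0.98, 1.37, 1.21 and 1.00, and preparation 4 was the highest in each group. The fit gave 1.16 ± 0.15 (SE, adjusted p = 0.0153). Other nucleolar genes had smaller values that missed the threshold in this fit: Nop58, a core protein of box C/D small nucleolar particles, gave 0.65 ± 0.12 (adjusted p = 0.0644), Npm1, the nucleolar histone chaperone nucleophosmin, 0.52 ± 0.10 (adjusted p = 0.0769), and Ncl, nucleolin, 0.52 ± 0.11 (adjusted p = 0.0972). Of 35 nucleolar and ribosome assembly genes tested, 1 was called, 10 were higher and 1 lower in 4 of 4 preparations, and the median was 0.08 (0.04 without Cre preparation 4 and 0.15 without Cre preparation 3). When each medium had its own preparation effect, 6 were called, Nop58, Npm1 and Ncl among them (adjusted p = 0.00302, 0.00191 and 0.0154). Mphosph8, a subunit of the HUSH complex that silences genes at methylated histones, measured 24.8, 16.2, 19.5 and 40.2 CPM with GFP and 31.3, 34.3, 35 and 75.6 CPM with Cre (0.81 ± 0.13, adjusted p = 0.0401).

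Chaperones gave 2 calls among 40 genes tested, beside 0.0654% of all genes called higher. Hsp90aa1, the inducible cytosolic HSP90, measured 247, 161, 229 and 703 CPM with GFP and 386, 299, 493 and 997 CPM with Cre in preparations 1 to 4. The Cre library was the higher of each pair, while GFP preparation 4 stood above 3 of the 4 Cre libraries. The log2 difference was 0.81 ± 0.13 (SE, adjusted p = 0.0412). Dnajc2, a J-domain protein that works at the ribosome, measured 25.2, 17.7, 26.1 and 50.8 CPM with GFP and 32.4, 34, 37 and 82.4 CPM with Cre (0.63 ± 0.10, adjusted p = 0.0361). Of 40 heat shock chaperones and co-chaperones tested, 13 were higher and 3 lower in 4 of 4 preparations, and the median was 0.05 (0.08 without Cre preparation 3). Cacybp, which binds the ubiquitin ligase factor SIAH1, gave 0.48 ± 0.10 (adjusted p = 0.0837) and Dnaja1, a partner of HSP70, 0.25 ± 0.07 (adjusted p = 0.192). Of 30 genes of endoplasmic reticulum folding and the unfolded protein response, 20 lay below 0, with a median of -0.03. In 4 of 4 preparations 1 was higher and 6 lower (3.33% and 20%, against 10.1% and 14.1% of all genes). The median was -0.05, -0.04, -0.10 and -0.08 in preparations 1 to 4. Leaving out single libraries or preparations moved the fitted median between -0.06 and 0.02. Hsp90b1, the HSP90 of this compartment, had the highest value of the list, 0.33 ± 0.08 (adjusted p = 0.14).

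**Figure D2:**
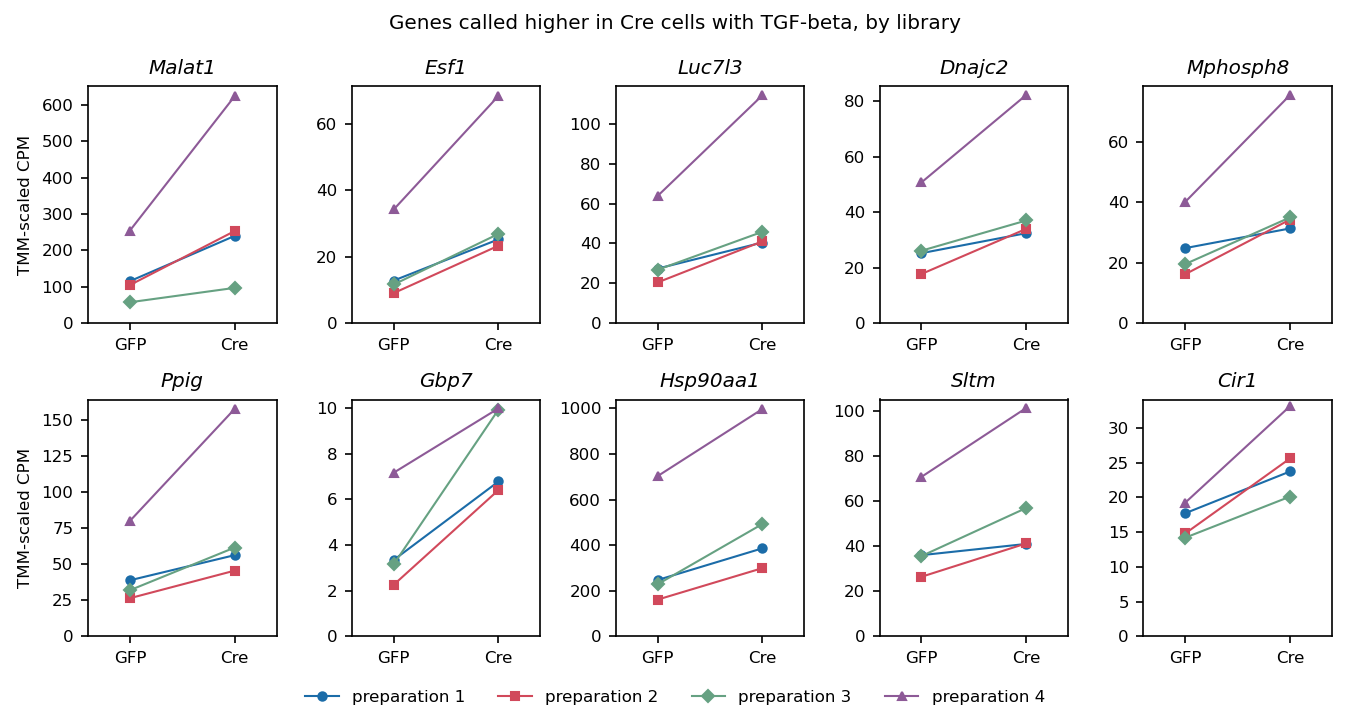
CPM of the 10 genes called, 1 panel per gene, with a line joining the GFP and the Cre library of each preparation, all with TGF-beta. Every line rises from GFP to Cre, preparation 4 is the highest in both groups for all 10 genes, and the lines of different preparations start from different levels.

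Interferon-stimulated genes were higher with Cre in most members, and 1 of them passed the threshold. Gbp7, an interferon-induced guanylate-binding protein that acts against pathogens inside cells, measured 3.35, 2.26, 3.16 and 7.16 CPM with GFP and 6.78, 6.40, 9.92 and 9.98 CPM with Cre (54 to 251 counts). Preparation 4 had the smallest pair difference (0.47 against 1.00, 1.47 and 1.63 on the log2 scale), and its GFP library lay within the range of the Cre group. The fit gave 1.15 ± 0.19 (SE, adjusted p = 0.0401). In a fit of the 8 libraries with TGF-beta alone Gbp7 was not called (edgeR adjusted p = 0.0682). The stretch of 250 bases before the start of Gbp7 is shown because the interferon-stimulated response element, where the factor ISGF3 binds, has the core GAAA, any 2 bases, then GAAA again. The matches on either strand are in capitals, and the promoters of the antiviral genes Ifit1 and Isg15 are given with it for comparison. The sequences are from RefSeq on GRCm38.p6, an earlier build than that of the counts, and lie at chr3:142530086-142530335 (plus strand), chr19:34640639-34640888 (plus strand) and chr4:156200819-156201068 (minus strand).

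Gbp7: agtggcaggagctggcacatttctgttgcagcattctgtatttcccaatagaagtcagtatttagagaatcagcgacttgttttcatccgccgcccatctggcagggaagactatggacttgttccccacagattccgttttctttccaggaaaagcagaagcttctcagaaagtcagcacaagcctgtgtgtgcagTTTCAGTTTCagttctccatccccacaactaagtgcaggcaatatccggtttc
Ifit1: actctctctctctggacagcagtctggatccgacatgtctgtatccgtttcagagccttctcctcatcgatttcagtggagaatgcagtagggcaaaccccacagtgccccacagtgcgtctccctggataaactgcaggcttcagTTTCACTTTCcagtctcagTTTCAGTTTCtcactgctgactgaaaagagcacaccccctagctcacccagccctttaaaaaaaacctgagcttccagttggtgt
Isg15: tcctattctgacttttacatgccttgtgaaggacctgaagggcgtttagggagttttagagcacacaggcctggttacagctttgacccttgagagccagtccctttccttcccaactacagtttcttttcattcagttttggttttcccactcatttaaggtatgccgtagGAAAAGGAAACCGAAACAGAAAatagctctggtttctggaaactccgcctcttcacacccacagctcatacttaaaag

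The Gbp7 window holds 1 match, which begins 53 bases before the start of the gene. The Ifit1 window holds 2, at 104 and 85 bases, and the Isg15 window 3 that overlap each other. The motif, on both strands, was found in 978 of 32851 promoter windows of RefSeq (2.98%) and in 350 of the 10768 tested genes with a window (3.25%). The first share counts windows, whereas the second and those that follow count a gene as holding the motif if any of its windows did. By gene it was found in 9 of 9 guanylate-binding and immunity-related GTPases with a window, although another window of Gbp3 held 0 matches. It was found in 11 of 26 antiviral effectors (42.3%), in 3 of 17 antigen presentation genes (17.6%) and in 0 of 39 splicing genes. Among the called genes, 8 had a window and 1, Gbp7, held the motif. A match describes these letters and is no evidence that a factor binds.

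Of 37 antiviral effectors tested, 36 lay above 0, 25 were higher and 0 lower in 4 of 4 preparations (67.6% and 0%), and 22 had an unadjusted p under 0.05, yet 0 were called by edgeR and 10 by DESeq2. The single member below 0 was Mx1, a gene named after its value was seen, at -0.34 ± 0.55 and 0.403 CPM with GFP. The list's median was 0.52, and it was 0.60, 0.68, 0.58 and 0.36 in preparations 1 to 4. Ifit1, which binds foreign RNA, measured 16.3, 11.4, 22 and 33.1 CPM with GFP and 24.7, 34.7, 42.3 and 61.5 CPM with Cre. Each Cre library exceeded its partner and the groups overlapped, with a difference of 1.00 ± 0.18 (SE, adjusted p = 0.071). Isg15, a ubiquitin-like modifier, measured 45.7, 41.3, 46.0 and 130 CPM with GFP and 80.4, 91.0, 94.5 and 202 CPM with Cre (0.88 ± 0.22, adjusted p = 0.156). Bst2, which tethers budding virus to the cell, gave 0.89 ± 0.23 (adjusted p = 0.168) and Ddx60, a helicase of the same response, 0.98 ± 0.24 (adjusted p = 0.134). Irf7, the transcription factor that amplifies interferon production, gave 0.76 ± 0.27 (adjusted p = 0.289). It was counted with the interferon signalling genes described below and not with the antiviral effectors. Ifit1 and Ddx60 were called, and Isg15 too, when each medium had its own preparation effect (adjusted p = 0.0209, 0.0375 and 0.022).

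Among 14 guanylate-binding and immunity-related GTPases tested, 13 lay above 0 and 8 were higher in 4 of 4 preparations (57.1%), with a median of 0.36 and Gbp7 as the 1 call. Gbp2, of the same family, differed little with TGF-beta (12.9, 10.2, 15.2 and 14 CPM against 14.1, 13.4, 17.2 and 14.3 CPM, 0.19 ± 0.12, adjusted p = 0.521). Gbp3 gave 0.74 ± 0.21 (adjusted p = 0.204) and Igtp 0.46 ± 0.19 (adjusted p = 0.337). Of 19 genes of antigen presentation by MHC class I, 18 lay above 0 and 10 were higher in 4 of 4 preparations (52.6%), with 0 called by edgeR or DESeq2, 7 at an unadjusted p under 0.05 and a median of 0.25. B2m, the light chain of MHC class I, measured 414, 440, 393 and 595 CPM with GFP and 488, 510, 486 and 710 CPM with Cre, higher in each pair (0.25 ± 0.10, adjusted p = 0.311), but its value was -0.07 once the trends on GC content and transcript length described further on were removed. Psme2, a proteasome activator subunit, gave 0.33 ± 0.10, H2-K1, a heavy chain, 0.28 ± 0.11, and Tap2, a peptide transporter, 0.18 ± 0.07 (adjusted p = 0.221, 0.319 and 0.307). Genes of interferon signalling and nucleic acid sensing did not share this direction: of 25 tested, 14 lay above 0, and the median was 0.0037. Ifnar1, a receptor chain of type I interferon, gave -0.19 ± 0.06 (adjusted p = 0.221), the lowest value of that list, and Irf7 at 0.76 was the highest. Near-identical copies among the guanylate-binding, MHC, Ifit, ribosomal, Npm1, Ppig and Hsp90aa1 families, and antisense overlaps such as that of Kcnq1ot1, make their separate counts uncertain, since the strand and multi-mapping settings are among those not given here.

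**Figure D3:**
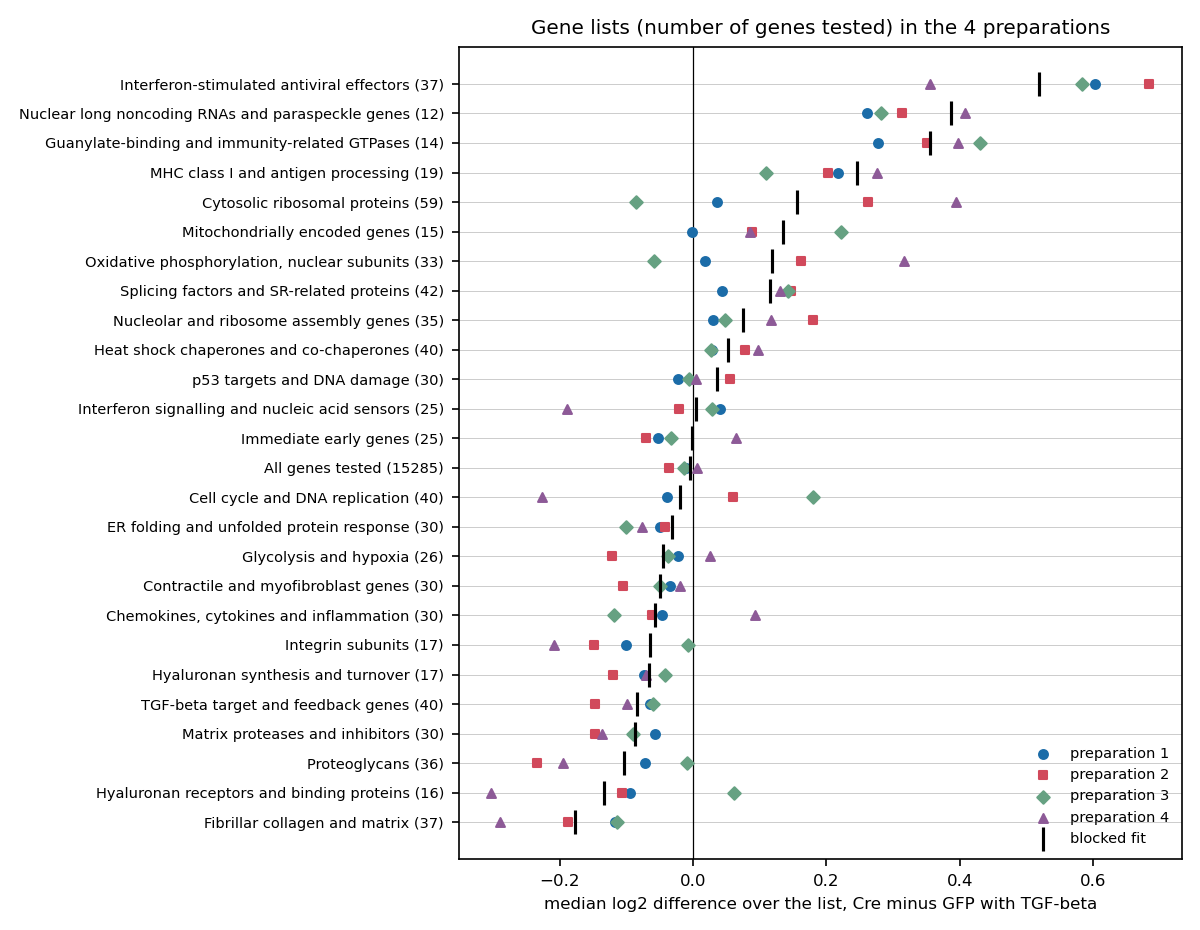
Median log2 difference (Cre minus GFP, with TGF-beta) of each gene list in the 4 preparations (symbols) and in the blocked fit (bars), with the number of genes tested in brackets. Antiviral effectors, nuclear long noncoding RNAs, GTPases and MHC class I genes lie above 0 in all 4 preparations, and fibrillar collagen and matrix genes below 0 in all 4. The splicing, nucleolar and heat shock lists also lie above 0 in all 4. Also below 0 in all 4 are hyaluronan synthesis, proteoglycan, contractile, TGF-beta target, integrin, matrix protease and endoplasmic reticulum folding genes.

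The 12 lower genes with the smallest p had adjusted p-values from 0.0769 to 0.156 in edgeR's test, so none is called, and their fitted differences ran from -0.58 to -0.24. Each was lower in 4 of 4 preparations, which the rule for naming them required and which held for 2160 of all genes (14.1%). Nfasc, the adhesion protein neurofascin, measured 4.57, 5.25, 3.92 and 1.21 CPM with GFP and 3.21, 3.65, 2.45 and 0.802 CPM with Cre (-0.58 ± 0.11). The log2 pair differences were close to each other (-0.50, -0.51, -0.66 and -0.55), although preparation 4 was far below the rest in both groups. Stab1, the scavenger receptor stabilin-1, measured 34.7, 37.7, 39.5 and 53.8 CPM with GFP and 28.4, 26.2, 33.4 and 43.1 CPM with Cre (-0.34 ± 0.09, adjusted p = 0.14). Cd38, an enzyme that consumes NAD, measured 26.1, 23, 30.2 and 14.5 CPM with GFP and 21.8, 18, 22.2 and 11.7 CPM with Cre (-0.34 ± 0.08, adjusted p = 0.129). Slc38a7, a transporter of glutamine in lysosomes, gave -0.44 ± 0.10. Dock8, an activator of CDC42, gave -0.47 ± 0.11 and Coro7, a coronin of the Golgi, -0.33 ± 0.08. The enzymes Capn5, a calpain protease, Ggcx, the vitamin K-dependent carboxylase, Zdhhc9, a palmitoyltransferase, and Trim32, a ubiquitin ligase, gave -0.36 ± 0.08, -0.29 ± 0.07, -0.28 ± 0.07 and -0.24 ± 0.06. Igsf3, a membrane protein with immunoglobulin domains, gave -0.29 ± 0.07. All 12 were called when each medium had its own preparation effect, and 0 genes were called lower with the 8 libraries with TGF-beta alone. With GC and length trends removed, Cd38 was called at -0.51 (adjusted p = 0.00888), whereas the other genes named here moved toward 0, such as Stab1 to -0.18 and Igsf3 to -0.14 (adjusted p = 0.512 and 0.552).

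The hyaluronan machinery other than Has2 gave no call in the blocked edgeR fit and 1 lower with DESeq2. When each medium had its own preparation effect, edgeR called 3 lower, Gfpt2, Stab1 and Itih2 (adjusted p = 0.0399, 0.0362 and 0.0373). Has1 was scarce, at 1.62, 2.07, 2.11 and 4.31 CPM with GFP and 1.36, 2.00, 1.54 and 4.41 CPM with Cre (-0.14 ± 0.33, adjusted p = 0.899), and Has3, with 0 to 7 counts, was not tested. Of 17 genes of hyaluronan synthesis and turnover tested, 14 lay below 0, 1 was higher and 3 lower in 4 of 4 preparations (5.88% and 17.6%, near the 10.1% and 14.1% of all genes), 1 had an unadjusted p under 0.05, and the median was -0.07 (-0.12 without preparation 2 and -0.02 without GFP preparation 1). Gfpt2, which feeds glucose into hexosamine precursors, gave -0.22 ± 0.11 (adjusted p = 0.381). Cemip, which starts hyaluronan breakdown, measured 158 to 227 CPM in GFP preparations 1 to 3 and 11.6 CPM in preparation 4, and 139 to 211 and 8.02 CPM with Cre, so preparations differed far more than viruses did (-0.11 ± 0.31). Hyal2, an anchored hyaluronidase, was level (-0.0043 ± 0.11, adjusted p = 0.995), and Hyal1, its lysosomal relative, gave -0.27 ± 0.13 (adjusted p = 0.37). Among 16 tested receptors and binding proteins, 12 lay below 0 and 4 were lower in 4 of 4 preparations (25%, against 14.1% of all genes), 3 had an unadjusted p under 0.05, with a median of -0.13 (-0.04 without preparation 4 and -0.20 without Cre preparation 1). Cd44, the main receptor, measured 286, 310, 353 and 363 CPM with GFP and 267, 261, 378 and 297 CPM with Cre (-0.13 ± 0.10, adjusted p = 0.587). Itih2, whose protein becomes linked to hyaluronan, gave -0.30 ± 0.13 (adjusted p = 0.358), and Acan, the proteoglycan aggrecan, -0.93 ± 0.39 (adjusted p = 0.346) at levels of 3.18 CPM or less.

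Collagen and matrix genes lay slightly lower with Cre in nearly every member, with 0 of 37 called by the blocked edgeR fit or DESeq2 and 7 at an unadjusted p under 0.05. When each medium had its own preparation effect, edgeR called 6 of 37 lower, among them Col1a1, Col3a1 and Fn1 (adjusted p = 0.0407, 0.031 and 0.0443). Of the 37, 36 lay below 0, 28 were lower in 4 of 4 preparations (75.7%, against 14.1% of all genes) and 0 were higher in 4 of 4. These genes are long, with a median of 5206 bases. In the quartile of longest transcripts 916 of 3814 genes were lower in 4 of 4, and in that of highest expression 965 of 3821. The list's median difference was -0.18, with -0.12, -0.19, -0.11 and -0.29 in preparations 1 to 4, and it was -0.10 without Cre preparation 4. When the trends on GC content and transcript length were removed, the median was -0.07. Col1a1, the main chain of type I collagen, measured 20367, 21328, 19368 and 8661 CPM with GFP and 18246, 18726, 17069 and 7320 CPM with Cre. Each Cre library lay below its partner by a like amount (-0.16, -0.19, -0.18 and -0.24 on the log2 scale), and preparation 4 was lowest in both groups (fitted -0.19 ± 0.08, adjusted p = 0.323). Fn1, fibronectin, gave -0.38 ± 0.14 (adjusted p = 0.308), and its pair differences were uneven, from -0.14 in preparation 3 to -0.80 in preparation 4. Col3a1 gave -0.26 ± 0.10 and Col5a1, which starts collagen fibrils, -0.18 ± 0.07 (adjusted p = 0.301 and 0.307). With GC and length trends removed, Col1a1, Col3a1 and Col5a1 were at -0.04, -0.13 and -0.0082, and without Cre preparation 4 Col3a1 was at -0.15, Fn1 at -0.22 and Hspg2, a proteoglycan gene given next, at -0.19. Col5a1 was at -0.12 without preparation 4. Postn, the matricellular protein periostin, gave -0.05 ± 0.51 (adjusted p = 0.98). Of 36 proteoglycan genes, 29 lay below 0, 14 were lower and 1 higher in 4 of 4 preparations, and the median was -0.10 (-0.06 without Cre preparation 4 and -0.18 without Cre preparation 3). Hspg2, the basement membrane proteoglycan perlecan, gave -0.35 ± 0.14 and Bgn, biglycan, -0.18 ± 0.07 (adjusted p = 0.322 and 0.308).

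Contractile genes and TGF-beta targets gave 0 calls of 30 and 0 of 40 in the blocked edgeR fit, with medians of -0.05 and -0.08. Leaving out a library moved the first from -0.12 (GFP preparation 4) to 0.03 (GFP preparation 1) and the second from -0.13 (Cre preparation 1) to -0.06 (Cre preparation 4). DESeq2 called 0 and 1, and 2 and 6 had an unadjusted p under 0.05. When each medium had its own preparation effect, edgeR called 1 TGF-beta target higher, Inhba, and 4 lower, among them Smad3 and Tgfbr2 (adjusted p = 0.0257, 0.0363 and 0.0251). Acta2, the smooth muscle actin that marks myofibroblasts, measured 2693, 2501, 2383 and 1403 CPM with GFP and 2695, 2404, 2176 and 1546 CPM with Cre, which left the groups almost on top of each other (-0.02 ± 0.22, adjusted p = 0.983). Tagln, its partner transgelin, gave 0.12 ± 0.13 (adjusted p = 0.736), and Vcl, vinculin, -0.26 ± 0.13 (adjusted p = 0.391). Itga11, the collagen receptor chain of activated fibroblasts, gave -0.26 ± 0.07 (adjusted p = 0.193). Ccn2, connective tissue growth factor, gave -0.10 ± 0.11 (adjusted p = 0.715). Inhba, the activin subunit, was an exception in sign at 0.57 ± 0.14, higher in 4 of 4 preparations (adjusted p = 0.143). The signalling genes Smad3, Tgfbr2 and Ski, a transducer, a receptor and a repressor of the pathway, gave -0.29 ± 0.09, -0.27 ± 0.09 and -0.19 ± 0.07 (adjusted p = 0.218, 0.248 and 0.278). With GC and length trends removed they were -0.16, -0.11 and -0.04, and Tgfbr2 was -0.17 without Cre preparation 4 and Ski -0.11 without preparation 4.

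Other gene groups gave values that differed between preparations. The 59 cytosolic ribosomal protein genes had a median of 0.16, but it was 0.04, 0.26, -0.09 and 0.39 in preparations 1 to 4, and 4 of 59 were higher in all 4 (6.78%). Without Cre preparation 4 the median was 0.05, and without Cre preparation 3 it was 0.24. Rps24, the member with the smallest p, gave 0.43 ± 0.11 (adjusted p = 0.148). Ribosomal protein genes held 6.48% of counts in Cre preparation 4 and 4.95% in its GFP partner, against 3.67% to 5.10% in the other 6 libraries. The 33 nuclear subunits of oxidative phosphorylation followed the same order of preparations (0.02, 0.16, -0.06 and 0.32), with a median of 0.12 and of 0.03 without Cre preparation 4. Mitochondrially encoded genes had a median of 0.14 that became -0.37 once the trends on GC content and length were removed, 0.03 without GFP preparation 4 and 0.20 without Cre preparation 4. Cell cycle genes had a median of -0.02, with -0.04, 0.06, 0.18 and -0.23 in the 4 preparations, p53 targets a median of 0.04, immediate early genes -0.0014, glycolysis and hypoxia genes -0.05, and chemokines and cytokines -0.06, all with 0 called by the blocked edgeR fit or DESeq2, and 1, the cytokine Il6, when each medium had its own preparation effect (adjusted p = 0.0258). With single libraries or preparations left out, these 5 medians ranged from -0.18 to 0.23, from -0.0049 to 0.07, from -0.08 to 0.06, from -0.10 to 0.0054 and from -0.11 to 0.03.

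Markers of other cell types stood beside these results as follows. The summed level of the 20 cardiomyocyte markers was 1040 to 1270 CPM with GFP and 1200 to 1610 CPM with Cre, higher in 4 of 4 preparations, and nearly all of it was Ankrd1, a target of YAP that fibroblasts express too (0.26 ± 0.18, adjusted p = 0.535). The sums of endothelial markers (566 to 892 and 529 to 861 CPM) and of pericyte and smooth muscle markers (291 to 647 and 229 to 515 CPM) were lower with Cre in 4 of 4 preparations. Eng, at 747 and 679 CPM on average, made up most of the first and Pdgfrb, at 367 and 313 CPM, most of the second, and fibroblasts express both. Also lower in 4 of 4 was the sum of mesothelial and epicardial markers (234 to 317 and 230 to 303 CPM). Aldh1a2, at 254 and 241 CPM on average, made up most of it, and 10 of these 13 markers lay below 1 CPM. The sum of fibroblast identity genes (22600 to 44300 and 20500 to 40000 CPM), which Col1a1 and other matrix genes dominate, was lower in 4 of 4 as well. Macrophage and leukocyte markers summed to 504 to 1140 CPM with GFP and 478 to 1240 CPM with Cre, higher in 1 of 4 preparations. Lyz2, at 411 and 414 CPM on average, was the largest part of that sum. Of these 20 markers only 3, Cd3e, Cd74 and Cd79a, lay below 1 CPM. C1qa, C1qb, C1qc and Csf1r averaged 44.1, 57.6, 42.8 and 39.7 CPM with GFP and 51.5, 65, 43.4 and 34.2 CPM with Cre. Of the 17 tested members 8 lay above 0 and 9 below. Pdgfra, a fibroblast marker, gave -0.28 ± 0.11 (adjusted p = 0.332) and Upk1b, a mesothelial marker at 3 to 19 counts a library, 1.78 ± 0.40 (adjusted p = 0.108) with groups that did not overlap, in a list of which 4 of 8 tested members lay below 0. The part of these cells in the differences was not tested.

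The same contrast without TGF-beta showed which differences were shared by both media. There 25 genes were higher (0.164%) and 1 lower (0.00654%). The difference of the Cre effects between media was called for 0 genes and had an unadjusted edgeR p under 0.05 for 501 (3.28%). DESeq2 called 0, and with a separate preparation effect in each medium it was called for 6, Rock1, Smc3, Smc4, Thoc2, Esf1 and Ssb. The 10 genes called with TGF-beta all had larger fitted differences there than without it, a direction that choosing them in that medium favours. Esf1 went from 0.13 ± 0.16 without TGF-beta to 1.16 ± 0.15 with it, Hsp90aa1 from 0.13 ± 0.13 to 0.81 ± 0.13 and Malat1 from 0.38 ± 0.12 to 1.10 ± 0.12. Over whole lists the chaperone median was 0.07 without and 0.05 with TGF-beta and the nucleolar median 0.06 and 0.08. Interferon-stimulated genes had positive values in both media. The antiviral median was 0.90 without and 0.52 with TGF-beta, and that of the GTPases 0.83 and 0.36. Ifit1 gave 1.08 ± 0.17 without TGF-beta (adjusted p = 0.0344), at mean levels of 89.2 and 186 CPM in GFP and Cre cells, against 20.7 and 40.8 CPM with it, and the difference between media was -0.09 ± 0.25. Gbp2 rose without TGF-beta (0.84 ± 0.11, adjusted p = 0.0344), and its difference between media was -0.66 ± 0.17 (SE, adjusted p = 1.00). Stab1 fell without TGF-beta (-0.48 ± 0.08, adjusted p = 0.0414), and its values in both media differed by 0.13 ± 0.12. Collagen and matrix genes had a median of -0.11 without TGF-beta and -0.18 with it.

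**Figure D4:**
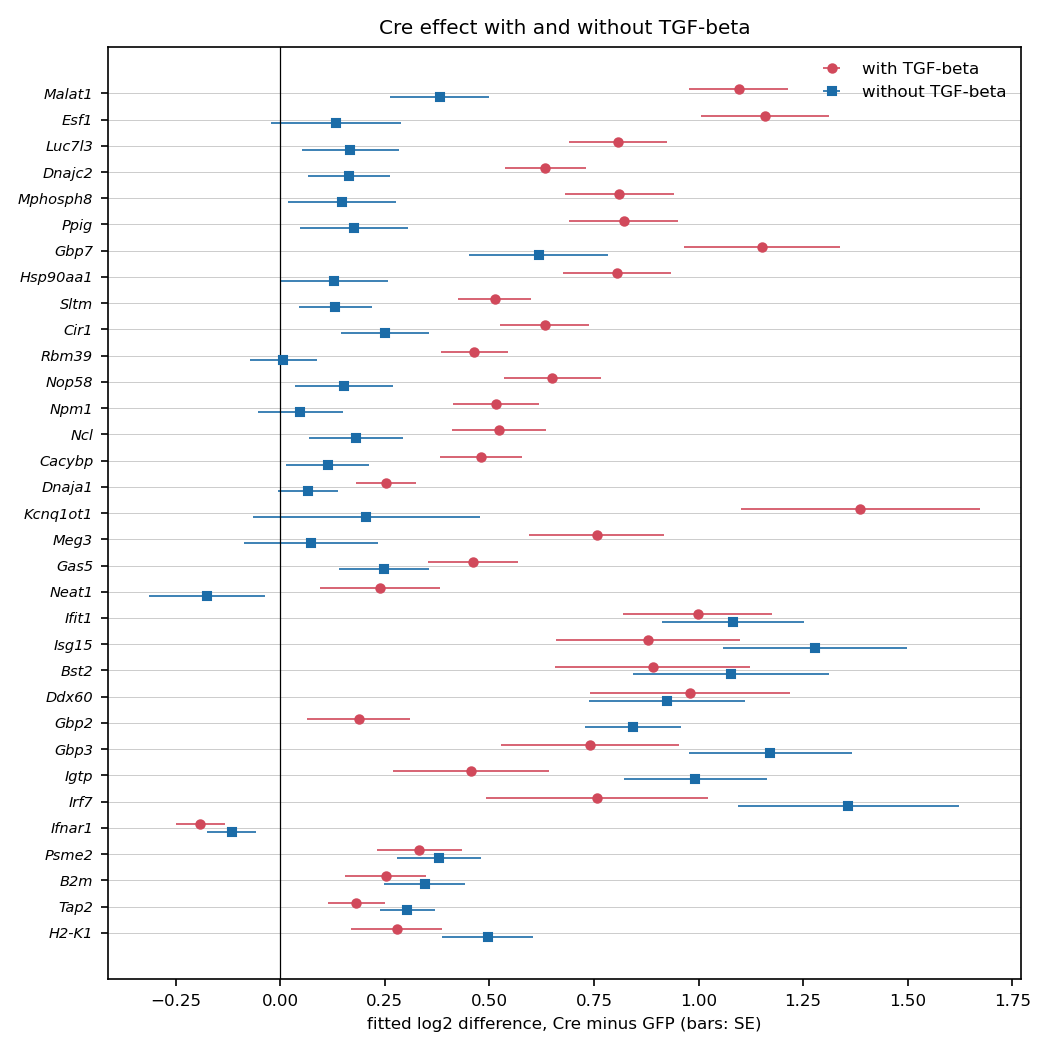
Fitted log2 difference, Cre minus GFP, with TGF-beta (circles) and without (squares) for genes described in the text, with bars of 1 SE. The RNA processing, nucleolar and chaperone genes drawn, most of them chosen by their p with TGF-beta, lie further right in that medium, whereas antiviral genes such as Ifit1 and Isg15 lie well above 0 in both media and Gbp2 lies at 0.84 without TGF-beta and 0.19 with it.

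The Cre effect also followed properties of the transcripts, and differently in each preparation. Across the 15259 tested genes with an annotated transcript, Spearman's correlation coefficient of the fitted difference was -0.25 with GC content and -0.31 with transcript length, as a description, since genes are not independent replicates. The coefficient with GC content was -0.15, -0.31, -0.35 and 0.10 in preparations 1 to 4, and with length -0.08, -0.23, 0.16 and -0.51. The quartile of genes lowest in GC content, at 45.05% or less, had a median of 0.12 and held 55.0% of the genes higher in 4 of 4 preparations. All 10 called genes lay below the median GC content of 49.75%, from 37.8% to 47.2%. After both trends were removed within each library, 9 of the 10 were still called and Ppig was not (adjusted p = 0.127), while 39 genes were called higher and 3 lower. Long noncoding RNAs held a larger share of counts in the Cre library of every pair, 0.384% to 0.531% against 0.356% to 0.450%. The Cre effects of the preparations resembled each other weakly across genes, with coefficients between 0.14 and 0.30 except for preparations 3 and 4, at -0.07. The part of these trends in the calls was not tested beyond that removal.

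**Figure D5:**
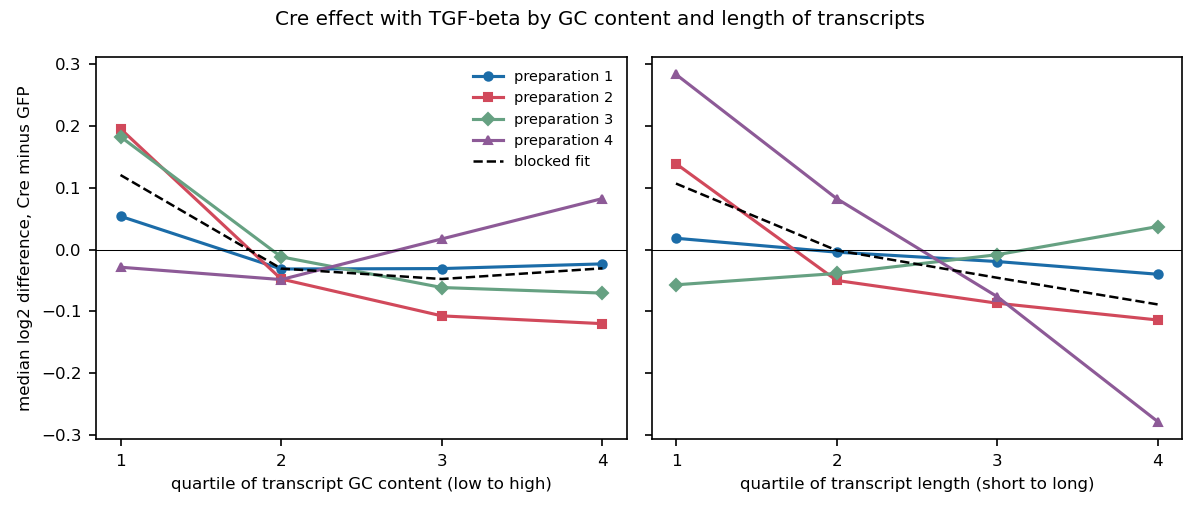
Median log2 difference (Cre minus GFP, with TGF-beta) in quartiles of transcript GC content and of transcript length, for each preparation (lines with symbols) and the blocked fit (dashed). Genes of low GC content lie above 0 in preparations 1, 2 and 3 and not in preparation 4, whose values fall with length from 0.28 to -0.28.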

How the data were processed

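Total RNA gave 16 libraries (NEBNext Ultra II), per the labels' protocols. What the authors deposited is a single matrix of unnormalized counts by gene. The submitters' processing notes list HTSeq 0.10.0, FastQC 0.10.1 and the genome build mm39. Not given in the sources used here: the aligner, the annotation and whether strand was used. GENCODE M21, on the earlier build GRCm38, gave symbols, transcript lengths and GC content for 52081 of 55414 genes.

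Counts were filtered with filterByExpr (minimum count 10, total 15), scaled with TMM (0.908 to 1.12) and fitted by robust quasi-likelihood tests (R 4.3.3, edgeR 4.0.16, limma 3.58.1) with 4 group means and the preparation as a block, which leaves 9 residual degrees of freedom. Calls were made at an adjusted p under 0.05. An SE is the difference divided by the square root of F. Differences within a preparation used a prior count of 2. The script was tested on simulated data, and DESeq2 1.42.0 was an alternative.

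Library names tie same-numbered libraries to 1 preparation. Their deviations from group means correlated at 0.51, 0.587, 0.402 and 0.783, against -0.558 to 0.281 for other pairs. Libraries of a group differed beyond sampling noise. The members and the 33 gene lists were chosen with earlier results of these data known. Genes were named if they were called, on a list fixed by name, among the 12 with the smallest p in each direction (at 2 CPM or more, with 1 direction in 4 of 4 preparations), or among the 4 smallest p of a list. Rock1, Smc3, Smc4, Thoc2, Ssb, Il6 and Mx1 were named after their values were seen. Some genes that this rule names are not reported here.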

Additional observations from a re-analysis of the deposited data

Results flagged for a closer look

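In 166 sets of 4 libraries, 1 set per gene or library measure and group, 36 held a library far from the other 3 by Dixon's criterion at 95%. About 1 of 20 sets of independent, normally distributed values meets that criterion. The sets here share the same libraries, hold unlogged values and include genes named by their p. Their number therefore cannot be compared with that rate. In 35 of the 36 sets the outlying library belonged to preparation 4. The labels' names of the preparations begin with R for preparation 4 and with P for the others. No cause was tested.

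Genes of RNA processing and chaperones stood high in preparation 4. Esf1 had 34.2 CPM with GFP (others 8.99 to 12.8) and 68.5 with Cre (others 23.3 to 26.8), and Luc7l3 63.9 and 114. With Cre, Dnajc2 had 82.4, Mphosph8 75.6, Ppig 158, Npm1 876 and Hsp90b1 3285 CPM. With GFP, Hsp90aa1 had 703 (others 161 to 247), Cacybp 74.6 and Gas5 123 CPM. Kcnq1ot1 had 2.67 CPM with GFP and 13.5 with Cre.

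Interferon genes of preparation 4 were high too. Isg15 had 130 CPM with GFP and 202 with Cre, Bst2 248 and 397, Irf7 88.4 and 131, and B2m 710 with Cre. Ifnar1 was low with Cre, at 59 CPM.

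Matrix and receptor genes stood low in preparation 4. Col1a1 had 8661 CPM with GFP and 7320 with Cre, Col5a1 1405 and 1107, and Fn1 3161 with Cre (others 12887 to 14231). With Cre, Itga11 had 110 and Pdgfra 57.5 CPM. With GFP, Tgfbr2 had 157 and Zdhhc9 52.2 CPM.

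Library measures followed. The share of counts in long noncoding RNAs was 0.4499% with GFP and 0.5314% with Cre in preparation 4, the share in the 10 most abundant genes 6.878% with Cre, and the mean transcript length over counts 3852 bases with GFP. The one case outside preparation 4 was mt-Rnr2, at 669 CPM in Cre preparation 3 (others 714 to 719).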

How the results depend on the processing

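The number of calls depended on the fit more than any other result. Against 10 genes higher and 0 lower with the replicate block, there were 0 higher with no replicate block, 80 higher and 3 lower with no low-count filter, 47 higher with the 8 libraries with TGF-beta alone, 308 higher and 94 lower with the block by medium, 39 higher and 3 lower with GC and length trends removed, 194 higher and 35 lower with DESeq2, and 1 higher against a fold of 1.2. The 47 called with the 8 libraries alone took in 7 of the 10. Gbp7, Sltm and Dnajc2 were not called there (edgeR adjusted p = 0.0682, 0.0682 and 0.052). Leaving out a preparation or a library gave 0 to 317 higher and 0 to 8 lower, with the most calls without Cre preparation 4. Other size factors (8 called) and a stricter filter (11) changed little. All 10 called genes kept a fitted difference above 0 in each of 20 alternatives, but not the call. Malat1 was called in 17 of the 20, Esf1 in 12 and the others in 8 to 10. The difference between media was called for 0 genes, or for 6 with the block by medium.

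Leaving out libraries, Has2 ranged from -0.1739 to 0.0933, Has1 from -0.3468 to 0.0861, Cemip from -0.3275 to 0.1355, Postn from -0.4803 to 0.2843, Acta2 from -0.2165 to 0.1643 and Hyal2 from -0.0721 to 0.0855. Medians ranged from -0.1167 to -0.0228 for hyaluronan synthesis, 0.4587 to 0.6867 for antiviral effectors, 0.2862 to 0.4714 for the GTPases, 0.3094 to 0.483 for nuclear long noncoding RNAs, 0.0991 to 0.1663 for splicing and 0.0411 to 0.1544 for nucleolar genes. With GC and length trends removed, B2m was -0.0692, Cemip 0.0205, Acta2 0.0095 and Hyal2 0.0635, and the medians of collagen and of nuclear long noncoding RNAs were -0.0725 and 0.2819. The stricter filter gave 0.0119 for Hyal2 and 0.2993 for the latter median, and the 8 libraries alone 0.0007 for Acta2 and 0.0021 for Hyal2. Among these fits, the block's absence lost every call and changed no direction of a named gene. The causes were not tested. Low counts limit Has1, Upk1b and Acan.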
